A study of Mus musculus with 12 samples.

Results

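The 10 genes described here carry the muscle atrophy program: the E3 ubiquitin ligase genes Fbxo32, Trim63, Fbxo30, Fbxo40 and Fbxo21, the FoxO factor genes Foxo1 and Foxo3, the myostatin gene Mstn, and the stress-response genes Klf15 and Ddit4. They were chosen by symbol for what they are known to do. All 10 were among the 15344 genes measured in each of the 12 libraries and all 10 passed the filter on low values. RNA was sequenced from quadriceps of C57BL/6 mice aged 6 months, with 4 animals in each of 3 groups. The WT mice were age matched, and the sources used here name no treatment for them. The KO mice were males without Gaa, the lysosomal enzyme acid alpha-glucosidase whose loss causes Pompe disease, and were given PBS at 2 months of age. The AAV mice were males of the same genotype, given the vector AAV2/8-LSPhGAApA (2e12 vg/kg) by tail vein at 2 months, which places human GAA under a liver-specific promoter, so that the muscle itself was not the tissue meant to make the enzyme. The sex of the WT mice was not given in the sources used here. Sequencing gave 22122233 to 47379737 assigned reads per library.

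Muscle mass is set by the balance of protein synthesis and breakdown. Insulin and IGF signalling through Akt keeps FoxO factors out of the nucleus, and when it fades FoxO factors switch on ubiquitin ligases and autophagy genes. Fbxo32 (atrogin-1) and Trim63 (MuRF1) are the classical ligase genes of this program and are widely used as its read-out. Myostatin is secreted by muscle fibres and limits their growth by way of activin receptors and Smad proteins, and glucocorticoids act on the same ligases, with Klf15 and Ddit4 among their target genes.

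The targeted gene went against the labels. Gaa (chromosome 11, 119267887 to 119285454) had normalized read counts of 11936 to 13075 in the KO-labelled libraries, of 324 to 460 in the WT group except WT animal 2 (14640), and of 500 to 947 in the AAV group except AAV animal 4 (9854). Which part of the gene was deleted was not given in the sources used here. Neither transcription of the knockout allele nor a mix-up of labels or samples was tested. Groups are therefore named throughout by their labels (WT-labelled, KO-labelled or AAV-labelled libraries), and every direction rests on those labels. The study also assayed GAA activity and glycogen in pieces of these quadriceps, and those measurements were not analysed here. Counts of members and of listed genes called are also given without WT animal 2 or AAV animal 4. The tissue matched its label: all 14 skeletal muscle markers were present, with a summed level of 3282500 to 4900690 normalized counts per kb of exon.

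Promoter sequences of 3 members on which the results turn are shown here because these muscle-restricted genes lack the GC box found in the windows of 6 other members. Promoters from RefSeq (GRCm38.p6) were matched for 9 of the 10 genes, all but Fbxo32, in 10 windows (2 for Fbxo40), and the 250 bases before each start were searched on both strands for 5 short motifs. Capitals mark a TATA box (TATAAA), the E-box CAGCTG and, in Trim63, the complement of the FoxO motif GTAAACA.
Mstn promoter, chr1:53061390-53061639, + strand: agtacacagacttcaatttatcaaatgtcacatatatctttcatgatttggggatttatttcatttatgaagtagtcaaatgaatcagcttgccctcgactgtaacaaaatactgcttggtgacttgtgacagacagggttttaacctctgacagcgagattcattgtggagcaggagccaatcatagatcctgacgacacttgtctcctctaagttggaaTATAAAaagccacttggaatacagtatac
Trim63 promoter, chr4:134314870-134315119, + strand: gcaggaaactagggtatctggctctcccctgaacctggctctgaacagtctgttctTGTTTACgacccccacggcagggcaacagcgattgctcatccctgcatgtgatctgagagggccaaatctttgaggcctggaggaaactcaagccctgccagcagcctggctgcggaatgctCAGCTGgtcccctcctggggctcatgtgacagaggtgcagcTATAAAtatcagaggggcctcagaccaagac
Fbxo40 promoter, first window, chr16:36990468-36990717, - strand: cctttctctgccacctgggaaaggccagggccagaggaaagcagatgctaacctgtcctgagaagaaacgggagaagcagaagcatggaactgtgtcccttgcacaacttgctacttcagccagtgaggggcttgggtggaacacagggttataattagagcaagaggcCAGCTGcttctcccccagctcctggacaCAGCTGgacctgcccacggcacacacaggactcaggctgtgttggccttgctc

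The Mstn window was AT rich (38.4% GC) and its TATA box lay at bases -29 to -24 from the start. Trim63 had a TATA box at -31 to -26, the E-box at -72 to -67 and the FoxO motif on the minus strand at -194 to -188, and it was the only one of the 10 windows with the FoxO motif (Fbxo32 was not searched). Fbxo40 had the E-box at -81 to -76 and again at -53 to -48, and its second window held it at -89 to -84. None of these 4 windows held the GC box GGGCGG, whereas the windows of Fbxo30, Fbxo21, Foxo1, Foxo3, Klf15 and Ddit4 all held it, and the Klf15 window also held the E-box CACGTG, at -228 to -223 and at -172 to -167. Of 32851 mouse promoter windows of this length, 3.2% held GTAAACA, 12.4% TATAAA, 13.0% CAGCTG, 32.7% GGGCGG and 6.0% CACGTG. A match describes these letters and says nothing about binding.

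Levels between the genes were compared as normalized counts per kb of exon. In the WT-labelled libraries the order was Trim63 (5819 ± 2002 per kb, SD, n = 4), Fbxo32 (2765 ± 968), Fbxo40 (2398 ± 504), Ddit4 (941 ± 851), Klf15 (314 ± 82.2), Mstn (163 ± 216), Foxo1 (110 ± 28.9), Foxo3 (97.4 ± 14.0), Fbxo21 (73.6 ± 9.18) and Fbxo30 (72.5 ± 16.7). Neighbours in this order differed by more than the larger of their SDs only from Trim63 to Fbxo32, from Fbxo40 to Ddit4 and from Foxo3 to Fbxo21, so that Ddit4, Klf15, Mstn, Foxo1 and Foxo3 were not separated from their neighbours in that stretch. Under the KO label, Fbxo32 (3882 ± 634), Trim63 (3855 ± 643) and Fbxo40 (3583 ± 511) came within 1 SD of each other at the top, and Mstn (960 ± 271) stood next, level with Ddit4 (858 ± 563). Under the AAV label, Mstn (191 ± 179) lay within 1 SD of both Klf15 (337 ± 153) and Foxo1 (231 ± 91.8). In each group the means of Fbxo32, Trim63 and Fbxo40 stood above those of the other 2 ligase genes and both FoxO genes.

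From WT-labelled to KO-labelled libraries, myostatin showed the largest difference among the 10 genes, and 1 ligase gene, Fbxo40, also rose. Both were higher in the KO-labelled libraries, and no member was lower by the test. With limma on log2(normalized count + 1) and Benjamini-Hochberg adjustment over all genes, 2 of 10 members had an adjusted p under 0.05, against a background of 27.6% of 14859 genes tested. Only Mstn also changed by 1 or more on the log2 scale (background 13.9%), and Mstn alone had no overlap between the groups (background 28.3%). The members' share was near or under the background, so these counts do not set the members apart from other genes. The median log2 fold change was 0.40 over the 10 members and 0.02 over all genes.

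Mstn (ENSMUSG00000026100, chromosome 1, 53061640 to 53068079) encodes the secreted growth inhibitor myostatin. Its normalized read counts were 209.9, 116.9, 1316.5 and 122.9 for WT animals 1 to 4 and 2191.4, 1945.5, 2639.8 and 3610.1 for KO animals 1 to 4. Every KO-labelled library was above every WT-labelled library, and WT animal 3 stood far above the other WT animals. The log2 fold change was 3.32 (SE 0.66, 95% confidence interval 1.86 to 4.79, adjusted p = 0.00731 by limma). It passed in all 18 alternatives, with values from 2.55 to 4.12. Without WT animal 2 it was 2.96 (adjusted p = 0.0236), and without WT animal 3 it was 4.12 (adjusted p = 1.63e-06). The group means differed 5.88-fold, less than the fitted change, which is an average on the log scale. In bulk RNA, fewer cells of a type and less RNA per cell cannot be told apart.

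**Figure D1:**
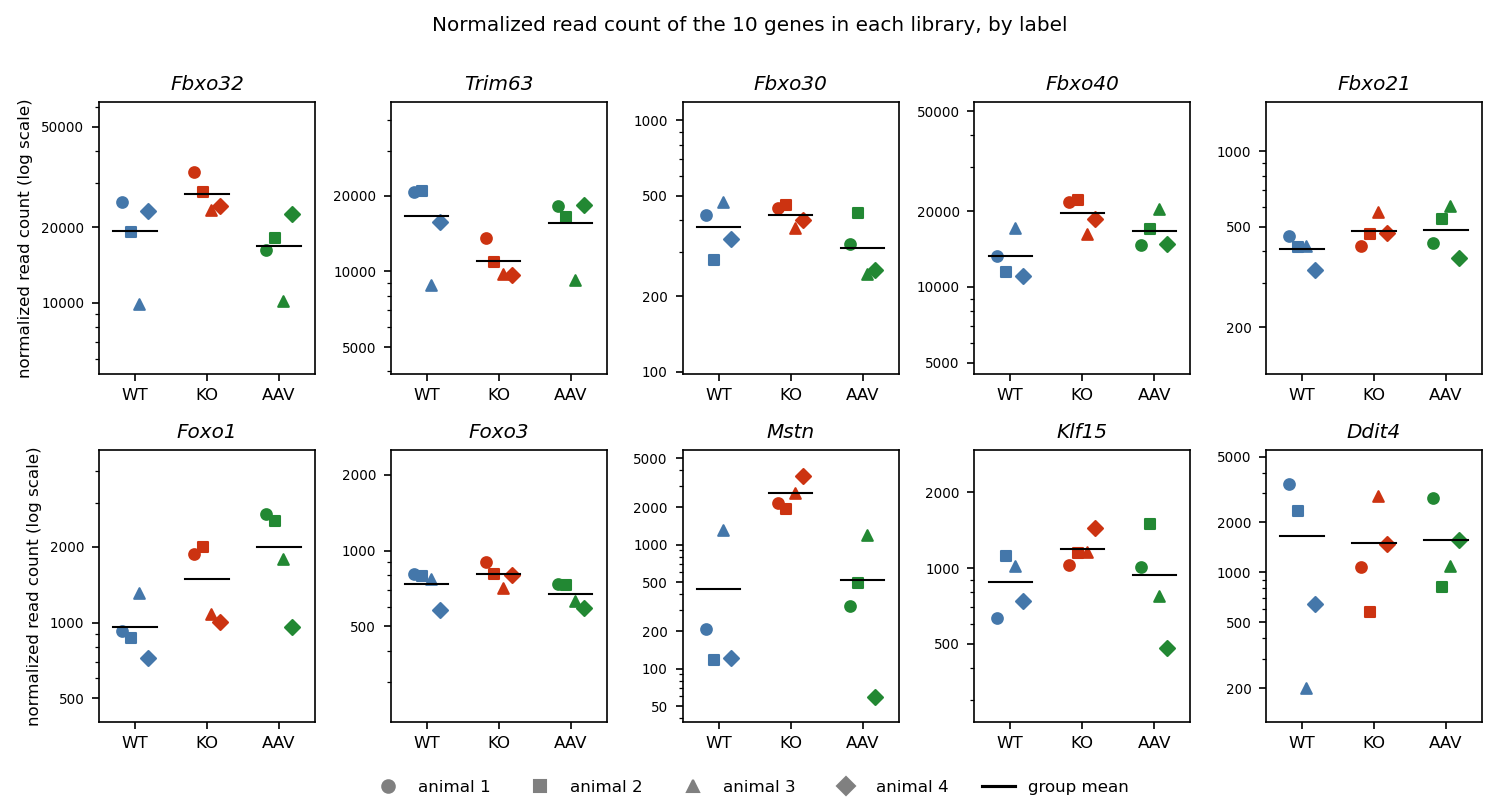
Normalized read count (log scale) of the 10 genes in each library, by label (4 animals each, the symbol marks the animal number and the line the group mean). Mstn in the KO-labelled libraries lies between 1946 and 3610, above all libraries labelled WT or AAV.

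Fbxo40 (ENSMUSG00000047746, chromosome 16, 36963460 to 36990467) encodes a muscle F-box protein that marks the insulin receptor substrate IRS1 for breakdown. Its counts were 13268, 11485, 17139 and 11022 for WT animals 1 to 4 and 21860, 22249, 16285 and 18673 for KO animals 1 to 4. The groups overlapped only by KO animal 3, which lay below WT animal 3. The log2 fold change was 0.59 (SE 0.17, interval 0.21 to 0.97, adjusted p = 0.0298, limma). The call was lost when any of WT animals 1, 2 or 4 or KO animals 1, 2 or 4 was left out (adjusted p = 0.0598 to 0.0875) and was kept without WT animal 3 or KO animal 3. Without WT animal 2 the log2 fold change was 0.53 (adjusted p = 0.0737).

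The classical ligase genes, widely read as markers of atrophy, did not pass the test, and their fitted changes had opposite signs. Fbxo32 (ENSMUSG00000022358, chromosome 15, 58175879 to 58214932), the substrate-binding subunit of an SCF ligase, had counts of 25056, 19058, 9879 and 23161 for WT animals 1 to 4 and of 33178, 27456, 23377 and 24323 for KO animals 1 to 4. Its log2 fold change was 0.56 (SE 0.27, adjusted p = 0.143, limma). WT animal 1 was above KO animals 3 and 4. Trim63 (ENSMUSG00000028834, chromosome 4, 134315120 to 134329629), a RING-finger ligase of the sarcomere, had counts of 20682, 20936, 8795 and 15736 for WT animals and of 13566, 10879, 9730 and 9653 for KO animals. Its log2 fold change was -0.53 (SE 0.26, adjusted p = 0.152), and 3 of the 4 WT animals were above all KO animals. WT animal 3 alone was below them, and without it Trim63 passed as lower in the KO-labelled libraries, at -0.80 (adjusted p = 0.00205). Fbxo32 did not pass in any of 18 alternatives. An antisense gene on the other strand, Gm15943, overlaps Fbxo32 and had 3.9 to 24.4 normalized counts, and because the strand setting of the counting was not given in the sources used here, reads of the pair may not be told apart.

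Within each library the ratio of Fbxo32 to Trim63 separated the groups more clearly than either gene did. The ratio does not depend on how the libraries were scaled, and it was chosen after the values were seen, so it is given as a description with no test. It was 1.21, 0.91, 1.12 and 1.47 for WT animals 1 to 4, 2.45, 2.52, 2.40 and 2.52 for KO animals 1 to 4, and 0.887, 1.10, 1.10 and 1.24 for AAV animals 1 to 4. The 4 KO-labelled libraries sat within 2.40 to 2.52, above all 8 others, and the outlying WT animal 3 and AAV animal 3, low in both genes, had ratios like those of their groups. The mean log2 ratio was 1.09 higher in KO-labelled than WT-labelled libraries, with a range of 0.97 (without WT animal 2) to 1.20 (without WT animal 4) when each animal was left out. The difference of the AAV-labelled libraries from the KO group was -1.20, with a range of -1.27 (without AAV animal 4) to -1.11 (without AAV animal 1). Among all 45 pairs of members, 9 pairs had ratios with no overlap between the KO-labelled and WT-labelled libraries, and 6 of them involved Mstn. Between AAV and KO labels 8 pairs had none. The share over pairs of other genes was not computed, and with 28.3% of single genes not overlapping in the first comparison these counts do not set the members apart. The other 3 of the first comparison were Fbxo32 to Trim63, Fbxo30 to Fbxo40 and Fbxo40 to Foxo3.

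**Figure D2:**
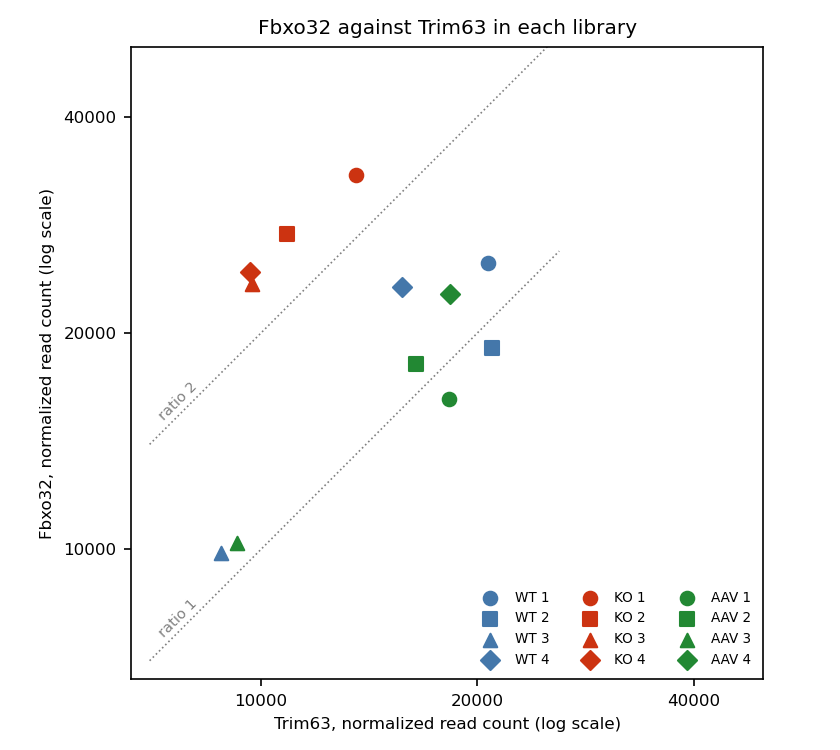
Fbxo32 against Trim63 normalized read count in each library (both axes log scale, colours mark the label, symbols the animal, dotted lines ratios of 1 and 2). The 4 KO-labelled libraries lie above the line of ratio 2, at 2.40 to 2.52, and the other 8 lie below it, at 0.887 to 1.47.

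The remaining members gave no call between the KO-labelled and WT-labelled libraries. Foxo1 (ENSMUSG00000044167, chromosome 3, 52268336 to 52353221), a FoxO factor that also governs fuel use, had counts of 923, 871, 1310 and 724 for WT animals and of 1879, 2004, 1086 and 1003 for KO animals. KO animals 1 and 2 lay above all WT animals, and KO animals 3 and 4 lay within their range. Its log2 fold change was 0.61 (SE 0.26, adjusted p = 0.107, limma), and it passed only without WT animal 3 (0.77, adjusted p = 0.0244). Genes on either strand overlap Foxo1 in the annotation (Gm20402 and Gm38034), and neither is listed in the files. Foxo3 (ENSMUSG00000048756, chromosome 10, 42181841 to 42276755), the FoxO factor most tied to Fbxo32 and autophagy genes, differed least, at 737 ± 106 (SD, n = 4) under the WT label and 806 ± 77.2 under the KO label, a log2 fold change of 0.13 (interval -0.18 to 0.45).

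Klf15 and Ddit4, both known targets of glucocorticoids, behaved differently in their spread. Klf15 (ENSMUSG00000030087, chromosome 6, 90462576 to 90475238), which drives branched-chain amino acid breakdown, had counts of 633, 1119, 1019 and 736 for WT animals and of 1029, 1143, 1155 and 1439 for KO animals. The groups overlapped by WT animal 2. Its log2 fold change was 0.47 (SE 0.19, adjusted p = 0.0959, limma), and it passed when GC content (adjusted p = 0.0379) or gene length (adjusted p = 0.0445) was corrected for, or without WT animal 3 (adjusted p = 0.0354). Ddit4 (ENSMUSG00000020108, chromosome 10, 59949669 to 59951834), an inhibitor of mTORC1, had counts of 3404, 2359, 200 and 644 for WT animals and of 1083, 573, 2877 and 1490 for KO animals. It varied 17.0-fold among the 4 WT animals, against 1.77-fold for Klf15, and its log2 fold change of 0.34 (interval -1.48 to 2.16, adjusted p = 0.773) changed sign between methods. A difference of Ddit4 inside that interval was not detectable in these animals.

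Fbxo30 (MUSA1, chromosome 10, 11281330 to 11298052) and Fbxo21 (SMART, chromosome 5, 117976730 to 118010201) encode F-box subunits that FoxO factors raise in wasting muscle. They were the least abundant members per kb and moved little. Fbxo30 was at 377 ± 87.0 (SD, n = 4) under the WT label and 420 ± 40.8 under the KO label, a log2 fold change of 0.18 (interval -0.22 to 0.58, adjusted p = 0.469, limma). Fbxo21 was at 408 ± 50.9 and 483 ± 65.6, a log2 fold change of 0.24 (interval -0.09 to 0.57, adjusted p = 0.240). Both intervals exclude a doubling, that is, a log2 fold change of 1.

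**Figure D3:**
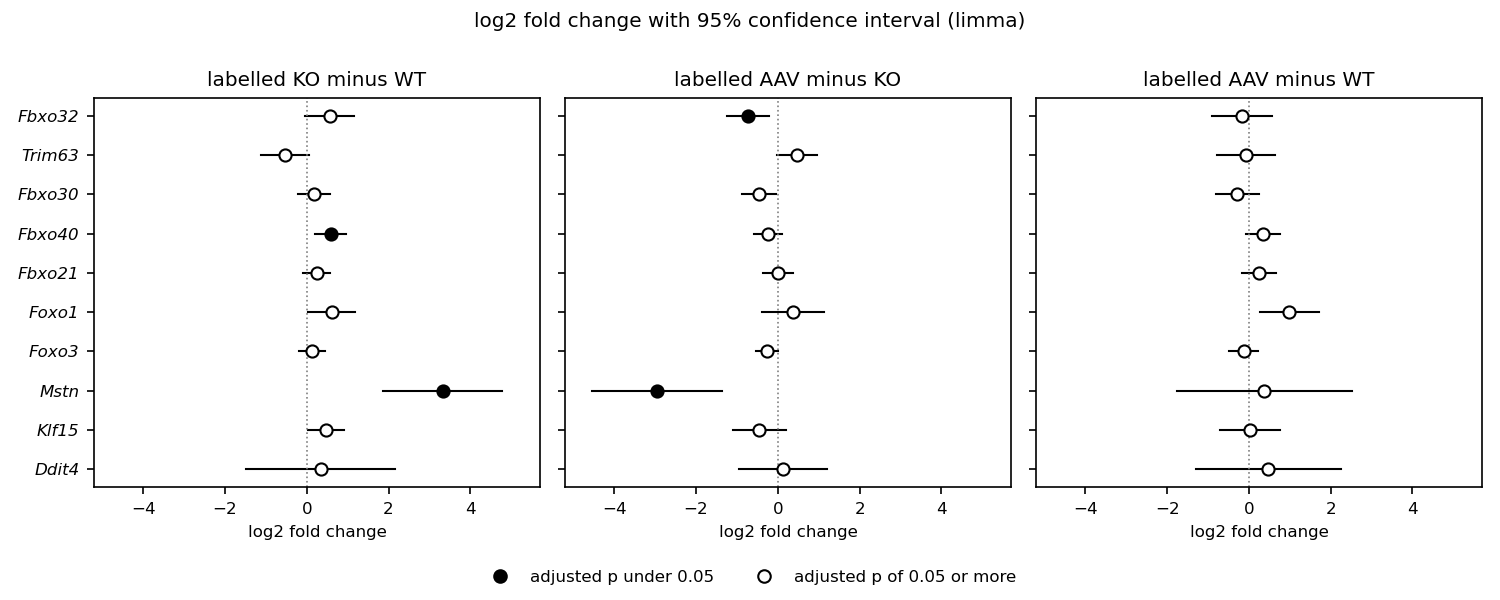
Log2 fold change of the 10 genes (limma, points) with 95% confidence intervals (lines) between the KO-labelled and WT-labelled libraries, AAV and KO, and AAV and WT. Filled points have an adjusted p under 0.05: Mstn (3.32) and Fbxo40 (0.59) in the first panel, Mstn (-2.95) and Fbxo32 (-0.74) in the second, and none in the third.

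Between the AAV-labelled and KO-labelled libraries, the comparison that asks what the liver-directed vector changed, Mstn and Fbxo32 fell. By limma, 2 of 10 members were called, against 26.3% of 14894 genes tested. Mstn alone also changed by 1 or more on the log2 scale (background 8.98%), and both had no overlap between the groups (background 30.6%). These shares too were near or under the background. The median log2 fold change was -0.25 over the members and 0.04 over all genes. This comparison uses the same 4 KO-labelled libraries as the one with WT, so the opposite signs of a gene in both are not independent.

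Mstn had counts of 321.1, 492.3, 1190.5 and 59.7 for AAV animals 1 to 4, all below the lowest KO-labelled library (1945.5). AAV animal 3 was the highest of its group and AAV animal 4 the lowest of all 12 libraries. The log2 fold change was -2.95 (SE 0.72, interval -4.54 to -1.35, adjusted p = 0.0176, limma). Without AAV animal 4 it was -2.14 (adjusted p = 0.00808). It passed in 17 of 18 alternatives and was lost without KO animal 4, which had the highest count (-2.78, adjusted p = 0.0518).

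Fbxo32 had counts of 16172, 18083, 10197 and 22631 for AAV animals 1 to 4, all below the lowest KO-labelled library (23377). AAV animal 4 came closest to the KO-labelled libraries. The log2 fold change was -0.74 (SE 0.23, interval -1.25 to -0.22, adjusted p = 0.0403, limma). Without AAV animal 4 it was -0.90 (adjusted p = 0.0180), and without AAV animal 3 it still passed at -0.51. It passed in 7 of 18 alternatives. The call was lost when KO animal 1, 2, 3 or 4 or AAV animal 1 or 2 was left out (adjusted p = 0.0531 to 0.109). It was also lost with all 12 libraries in one fit (adjusted p = 0.0914), with correction for GC content (0.0745) or gene length (0.0582), and with scaling by total reads (-0.57, adjusted p = 0.140), which moves the median of all genes from 0.04 to 0.21.

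Among the other members, none passed between the AAV-labelled and KO-labelled libraries. Trim63 counts were 18239, 16457, 9247 and 18307 for AAV animals 1 to 4. Of these, 3 lay above every KO-labelled library and AAV animal 3 below. The log2 fold change was 0.47 (SE 0.22, adjusted p = 0.140, limma), and without AAV animal 3 it passed at 0.70 (adjusted p = 0.00705). Fbxo30 was at 312 ± 85.2 (SD, n = 4), a log2 fold change of -0.46 (adjusted p = 0.0895), and passed only without AAV animal 2 (-0.62, adjusted p = 0.0217). Fbxo40 counts were 14623, 17051, 20416 and 14815, with a mean between those of the other groups, and its log2 fold change was -0.24 (interval -0.59 to 0.10, adjusted p = 0.257). Fbxo21 (488 ± 102) did not move measurably, at 0.001 (interval -0.37 to 0.37).

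The FoxO and stress genes overlapped as well. Foxo1 counts were 2694, 2541, 1794 and 960 for AAV animals 1 to 4, of which AAV animals 1 and 2 were above every other library and AAV animal 4 below every KO-labelled library. Its log2 fold change from the KO-labelled libraries was 0.38 (adjusted p = 0.418, limma). Foxo3 was at 674 ± 72.2 (SD, n = 4), a log2 fold change of -0.26 (interval -0.53 to 0.01, adjusted p = 0.132). Klf15 counts were 1012, 1493, 771 and 481, spanning those of every other library, and its log2 fold change was -0.45 (adjusted p = 0.261). Ddit4 counts were 2798, 813, 1091 and 1558, a log2 fold change of 0.13 (interval -0.94 to 1.21, adjusted p = 0.848).

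Between the AAV-labelled and WT-labelled libraries, no member passed. By limma 0 of 10 had an adjusted p under 0.05, with 1 at an unadjusted p under 0.05, against 1.29% of 14939 genes called, 0.951% called with a change of 1 or more on the log2 scale, and 11.7% with no overlap between the groups, which no member showed. edgeR called 0 members (beside 163 of 14939 over all genes) and DESeq2 called 1 (beside 951 of 13764). That member was Foxo1, with a log2 fold change of 0.99 (SE 0.32, interval 0.27 to 1.70, adjusted p = 0.155 by limma, 0.0295 by DESeq2). AAV animals 1, 2 and 3 lay above every WT-labelled library and AAV animal 4 lay within their range. Without AAV animal 4 Foxo1 reached 1.30 (adjusted p = 0.0496), and without both AAV animal 4 and WT animal 2 it was 1.27 (adjusted p = 0.141). For Mstn the log2 fold change was 0.37 with an interval of -1.76 to 2.51, so that a difference in either direction of the size seen for Foxo1 was not detectable. The median log2 fold change was 0.13 over the members and -0.03 over all genes.

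Some members moved with each other between animals of one label. Under both the WT and the AAV label, animal 3 had the highest Mstn and the lowest Fbxo32 and Trim63 count of its group. Under the KO label, animal 4 had the highest Mstn (3610.1) and the lowest Trim63 (9652.7), while the lowest Fbxo32 (23376.5) was in animal 3. The library lowest in Mstn, AAV animal 4, had the highest Fbxo32 and Trim63 of its group. Replicate numbers name different animals, and the sources used here give no tie between animal 3 of one label and animal 3 of another. A factor shared by them was not tested.

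Some marker lists of fibre types and other cells also differed between the labels. Their counts of calls stand beside 27.6% of all genes called between the WT and KO labels and 26.3% between the KO and AAV labels. Of 11 slow fibre markers, 10 fell and 1 rose between the WT and KO labels (6 fell without WT animal 2 or 4 or KO animal 1 or 4), and 9 rose between the KO and AAV labels (9 or 10 with each animal left out). Their summed level was 1743 to 4193 normalized counts per kb under the WT label, 416 to 686 under KO and 1988 to 12456 under AAV. Denervation and regeneration markers (11 genes in 12 rows, since Hdac4 has 2 identifiers) were lower in the KO-labelled libraries for 10 rows (6 without WT animal 1, 2 or 4) and summed to 1520 to 6331, 790 to 1011 and 1235 to 3473 per kb. Macrophage markers were lower for 8 of 11 measured (6 to 10 with each animal left out) and summed to 1040 to 3898, 534 to 935 and 609 to 3479. WT animal 3, the WT animal with high Mstn, had the lowest denervation (1520) and macrophage (1040) sums of its group. AAV animal 3 had the lowest macrophage sum of its group (609) and AAV animal 4, with the least Mstn, the highest (3479). Slow fibre sums did not follow Mstn between animals of a label. WT animal 1 had the lowest of its group (1743), with WT animal 3 at 2440, and AAV animal 4 had the lowest of its own (1988). The lowest denervation sum under the AAV label was in animal 2 (1235), with animal 3 at 1295. Endothelial markers were higher for 4 of 8 in the KO-labelled libraries (1 without WT animal 4 or KO animal 1 or 3, 2 without WT animal 2 or KO animal 2, and 8 without WT animal 3) and summed to 477 to 1214, 1121 to 1393 and 867 to 1507. Between the KO and AAV labels, 5 denervation rows were higher and 1 lower (8 and 1 without AAV animal 3), 1 macrophage marker was higher (6 without AAV animal 3) and 1 endothelial marker was lower. There 2 of 3 erythrocyte genes were higher (0 without KO animal 1 or 2 or AAV animal 1 or 2). So were 3 of 14 skeletal muscle markers (0 without AAV animal 1, 1 without KO animal 1, 4 without AAV animal 4). The call of 1 of 6 satellite cell markers as higher was lost without KO animal 1, 2 or 4 or AAV animal 1 or 4. Fibroblast and adipocyte markers (0 of 8 each), satellite cell markers (1 of 6 higher) and erythrocyte genes (0 of 3) had few calls between the WT and KO labels, and 3 fibroblast and 3 satellite cell markers were lower without WT animal 3. No marker was at 0 in any library. The part of these markers in the values of Mstn, Fbxo32 and Trim63 was not tested.

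**Figure D4:**
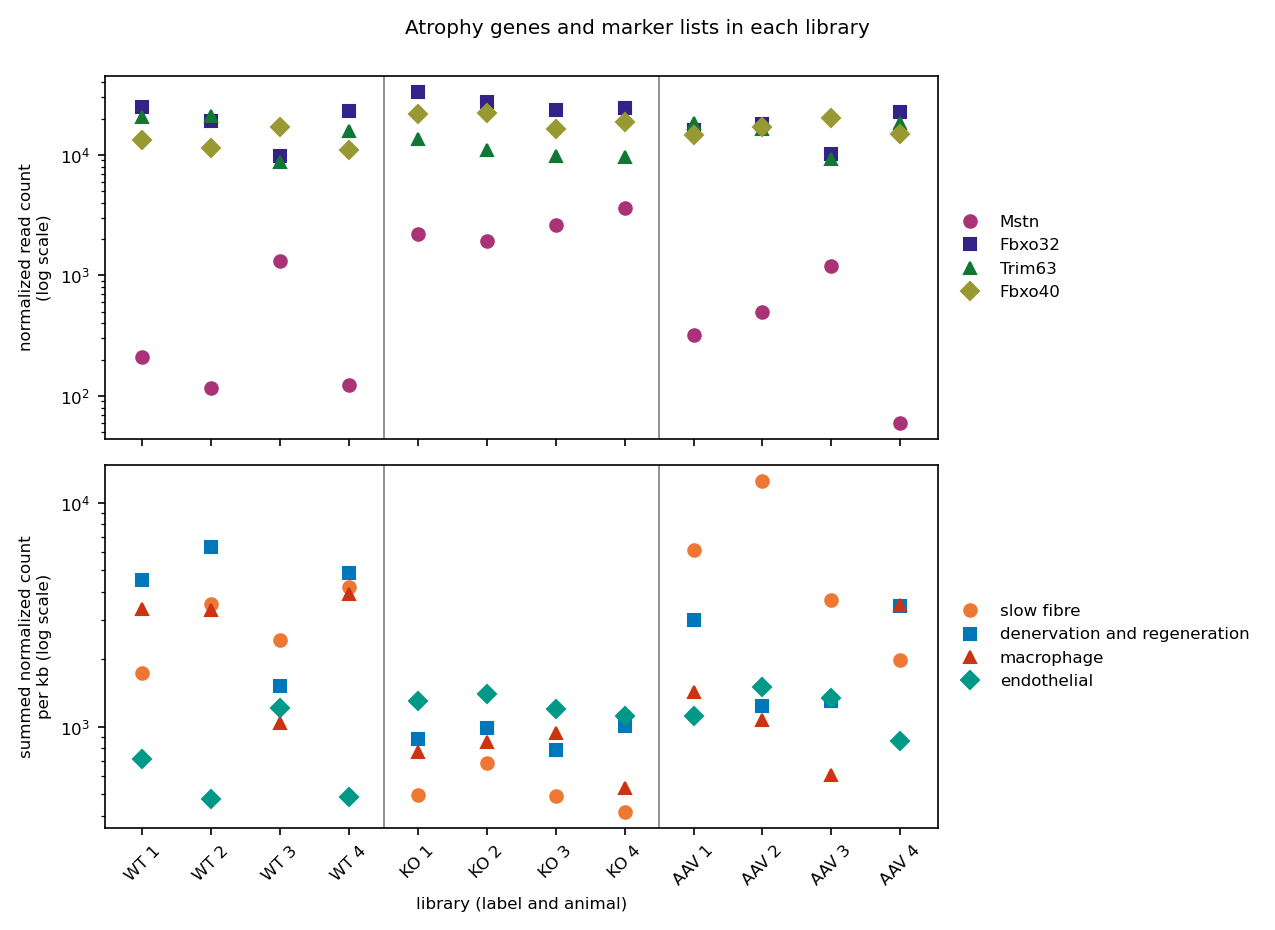
Normalized read counts of Mstn, Fbxo32, Trim63 and Fbxo40 (top) and summed normalized counts per kb of 4 marker lists (bottom) in each of the 12 libraries, both on a log scale. WT animal 3 differs from the other WT-labelled libraries in Mstn (1316.5), Fbxo32 (9879), denervation markers (1520) and macrophage markers (1040).

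Upstream of the members, genes that carry or restrain the myostatin signal were followed in a list of 31. Under KO against WT, 7 rose and 2 fell (29.0%, beside 27.6% of all genes), a median log2 fold change of 0.16. Those that rose included the myostatin effector Smad3 (1.18, adjusted p = 0.00253, limma) and the type I receptor gene Acvr1b (0.91, adjusted p = 0.00520). The type II receptor gene Acvr2a, taken after its values were seen, also rose (1.33, adjusted p = 0.0197) and lost its call without WT animal 4 or KO animal 4. Genes that restrain the signal rose as well, and these too were taken after their values were seen. They were the antagonist gene Wfikkn2 (1.38, adjusted p = 0.0110, limma) and the inhibitory Smad7 (0.93, adjusted p = 0.0202). The BMP antagonist Nog (-1.32, adjusted p = 0.00673) and the close myostatin relative Gdf11 (-0.95, adjusted p = 0.00874) fell. From KO to AAV labels, 2 rose and 10 fell (38.7%, beside 26.3%). Smad3 fell (-1.16, adjusted p = 0.0165; lost without KO animal 1 or AAV animal 1), Acvr2a fell (-1.29, adjusted p = 0.00635, passing with each of the 8 animals left out), Nog rose (1.04, adjusted p = 0.0261; lost without KO animal 2 or 4 or AAV animal 1 or 4), and Acvr1b (-0.71, adjusted p = 0.0610) and Gdf11 (0.58, adjusted p = 0.205) did not pass. With each animal left out, the first comparison had 4 (without WT animal 4) to 10 (without WT animal 3) higher and 2 lower, and 6 higher without WT animal 2. The second had 0 to 5 higher and 3 (without KO animal 1) to 10 (without AAV animal 3) lower, also 4 lower without AAV animal 1, 5 lower without KO animal 2 or 4, and 1 higher and 8 lower without AAV animal 4.

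The insulin, IGF and Akt path holds FoxO factors in check. Of 29 genes that carry or restrain it, 6 were higher and 2 lower in the KO-labelled libraries. That was 27.6%, the share also called over all genes, with a median log2 fold change of 0.29. The growth factor gene Igf1 (1.41, adjusted p = 0.0279, limma), the insulin receptor gene Insr (0.92, adjusted p = 0.0108) and the kinase gene Sgk1 (1.27, adjusted p = 0.00263) rose and Igf2 (-1.51, adjusted p = 0.0205) fell. Named after their values were seen, Tsc1 (0.59, adjusted p = 0.0446) and Phlpp1 (0.71, adjusted p = 0.0498), which restrain the path, also rose. The Akt genes split, with Akt2 higher (0.38, adjusted p = 0.0377) and Akt1 lower (-0.59, adjusted p = 0.0316). Igf1 lost its call without WT animal 1 or KO animal 1, 2 or 3, and Igf2 without WT animal 2 or 4 or KO animal 1 or 3. Between KO and AAV labels, 2 rose and 12 fell (48.3%, beside 26.3%), with Igf1 (-0.92), Insr (-0.73) and Sgk1 (-1.19) among the falls and Igf2 (0.80, lost without KO animal 1, 3 or 4 or AAV animal 1) among the rises. The counts of the first comparison depended on single animals. They were 14 higher and 4 lower without WT animal 3, and 2 or 3 higher and 0 to 2 lower without any other 1 animal (3 and 0 without WT animal 2). In the second they were 0 to 3 higher and 11 to 14 lower (3 and 12 without AAV animal 4).

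Genes known to respond to FoxO factors did not move one way. Of 34, 5 rose and 11 fell in the KO-labelled libraries (47.1%, beside 27.6% of all genes, median log2 fold change -0.21). The metallothionein genes Mt2 (-5.91, adjusted p = 0.00101, limma) and Mt1 (-4.43, adjusted p = 0.00207), which bind zinc and rise in wasting muscle, and the growth-arrest gene Gadd45a (-2.76, adjusted p = 0.00145), also known from denervated muscle, fell. Between the AAV and KO labels, 7 rose and 6 fell (38.2%, beside 26.3% of all genes). Of the genes named for the first comparison, Mt2 (5.06), Mt1 (3.57) and Gadd45a (1.75) were among those that rose. Without WT animal 3 the first counts were 6 higher and 15 lower, and without any other 1 animal 2 or 3 higher and 6 to 9 lower (2 and 8 without WT animal 2). The second were 4 (without KO animal 4) to 10 (without AAV animal 3) higher and 4 (without KO animal 1 or 2) to 7 lower (6 and 6 without AAV animal 4).

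Other ubiquitin ligase genes of muscle divided likewise, with 3 higher and 4 lower of 29 in the KO-labelled libraries (24.1%, beside 27.6% of all genes, median log2 fold change 0.23). The thin-filament stabiliser Klhl40 (-1.51, adjusted p = 0.00405, limma), the sarcomeric Fbxl22 (-3.16, adjusted p = 0.0108) and the chaperone-linked ligase gene Stub1 (-0.70, adjusted p = 0.0124) fell, and Asb15 (0.80, adjusted p = 0.0124) rose. Against the KO label, AAV-labelled libraries had 3 higher and 11 lower (48.3%, beside 26.3% of all genes). The genes named were those with the lowest adjusted p in the first comparison, which leaves the 11 lower genes unnamed, and Klhl40 (1.48), Fbxl22 (1.49) and Stub1 (0.68) were the 3 higher genes. Fbxl22 lost that call without any of the 4 KO animals or AAV animal 1. Without WT animal 3 the first counts became 14 higher and 5 lower, and without any other 1 animal 2 to 4 and 4 (4 and 4 without WT animal 2). The second were 2 to 4 higher and 7 (without KO animal 4) to 16 (without AAV animal 3) lower (3 and 11 without AAV animal 4).

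Downstream of Klf15, 4 of 14 measured amino acid and lipid genes rose in the KO-labelled libraries and 1 fell (35.7%, beside 27.6% of all genes, median log2 fold change 0.30). The proline-degrading enzyme gene Prodh (1.59, adjusted p = 0.00462, limma), the alanine aminotransferase gene Gpt2 (1.85, adjusted p = 0.00517) and the insulin-responsive glucose transporter gene Slc2a4 (0.66, adjusted p = 0.0141) rose, and Gpt (-0.81, adjusted p = 0.0108) fell. Of the same genes, AAV against KO labels gave 1 that rose (Gpt, 0.65) and 1 that fell (Gpt2, -1.55, lost without KO animal 1, 2 or 4 or AAV animal 1), or 14.3% beside 26.3% of all genes. Those counts were 1 or 2 higher (2 without KO animal 3) and 0 to 3 lower (3 without AAV animal 2), and 1 and 1 without AAV animal 4. Without WT animal 3 the first counts were 7 higher and 1 lower, and without any other 1 animal 3 higher and 1 or 2 lower (3 and 1 without WT animal 2). Glucocorticoid-responsive genes gave 4 higher and 6 lower of 22 (45.5%, beside 27.6% of all genes, median log2 fold change 0.03), among them the receptor gene Nr3c1 itself (0.69, adjusted p = 0.0205, lost without KO animal 1 or 4), and 5 higher and 3 lower (36.4%, beside 26.3%) between the AAV-labelled and KO-labelled libraries. The first counts were 1 higher and 2 lower without KO animal 4, 7 and 8 without WT animal 3, and 2 to 4 and 3 without any other 1 animal (4 and 3 without WT animal 2). The second were 3 to 7 higher and 1 to 4 lower (5 and 2 without AAV animal 4, 1 lower without KO animal 1 or 2). This list shares Mt1, Mt2 and Sgk1 with those above. Circadian clock genes, read because Klf15 follows the daily clock, gave 5 higher and 1 lower of 15 (40.0%, beside 27.6%), with Per2 (1.97, adjusted p = 0.00414), Hlf (2.88, adjusted p = 0.0119), Cry2 (0.46, adjusted p = 0.0179) and Per3 (0.98, adjusted p = 0.0229) higher, and 0 higher and 2 lower (13.3%, beside 26.3%) between the AAV-labelled and KO-labelled libraries. The count of 5 was 2 without KO animal 4, 3 without KO animal 3 or WT animal 1, 7 without WT animal 3 and 4 without WT animal 2. The count of 2 lower was 1 without any of the 4 KO animals or AAV animal 1, and 3 without AAV animal 3 or 4. Per3 lost its call without WT animal 1 or KO animal 3 or 4, and Cry2 without KO animal 4. Harvest times were not given in the sources used here, and their part was not tested. From WT to AAV labels, 164 genes of these 7 lists were tested, members left out. Of them, 0 passed with limma (24 at an unadjusted p under 0.05), 0 with edgeR and 9 with DESeq2. Over all genes, limma called 193 of 14939, edgeR 163 of 14939 and DESeq2 951 of 13764. The share of all genes at an unadjusted p under 0.05 was not computed.

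Genes whose log2 values followed each member most closely over the 12 libraries were taken by Pearson correlation among genes with a mean of at least 50, as a description, since the libraries share 3 labels and 1 scaling. Mstn was followed by Jak2 (r = 0.993), Atp8a1 (0.992) and Abcc4 (0.989). Jak2, a cytokine receptor kinase gene, had counts of 633, 487, 1508 and 469 for WT animals 1 to 4, 1893, 1662, 1878 and 2233 for KO animals and 675, 1107, 1290 and 361 in AAV animals, with WT animal 3 again high. Fbxo40 was followed by Lpin1 (0.990), a phosphatidate phosphatase gene, and by Prpf4 (0.961) and Slx4ip (0.957). Trim63 was followed by Ip6k3 (0.957), the mitochondrial calcium uniporter gene Mcu (0.942) and Itga5 (0.932). Fbxo32 had Hp1bp3 (0.931), Hyi (0.877) and Apbb2 (0.859), so that neither classical ligase gene was among the closest of the other.

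For the FoxO factors the nearest were Tns1 (0.951), Max (0.936) and Elmod3 (0.923) for Foxo1, and Tpp1 (0.915), Gnl2 (0.884) and a gene known only by a clone name (0.870) for Foxo3. Fbxo30 had Rb1 (0.920), Yipf4 (0.917) and Rnft1 (0.913), and Fbxo21 had Tusc5 (0.890), Zfp334 (0.873) and Mocs1 (0.855). Klf15 was followed by 3425401B19Rik (0.889), Tmem243 (0.875) and Slc46a3 (0.856). Ddit4 was followed by Kdelr2 (0.874), the clock gene Per1 (0.858) and Brat1 (0.813), the lowest set of correlations of the 10 members.

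The calls of most members turned on single animals. With each of the 8 animals left out in turn, the number of members called between the KO-labelled and WT-labelled libraries ranged from 1 to 5, and 5 were called without WT animal 3 (Trim63, Fbxo40, Foxo1, Mstn and Klf15). Between AAV and KO labels it ranged from 0 (without KO animal 4) to 3 (without AAV animal 3). Without WT animal 2 the first count was 1 (Mstn), and the log2 fold changes were 0.58 for Fbxo32, -0.39 for Trim63, 0.57 for Foxo1, 0.60 for Klf15 and 0.75 for Ddit4 (adjusted p = 0.0547 to 0.565, limma). Without AAV animal 4 the second count was 2. Mstn was the only member that passed in every such fit of the first comparison.

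**Figure D5:**
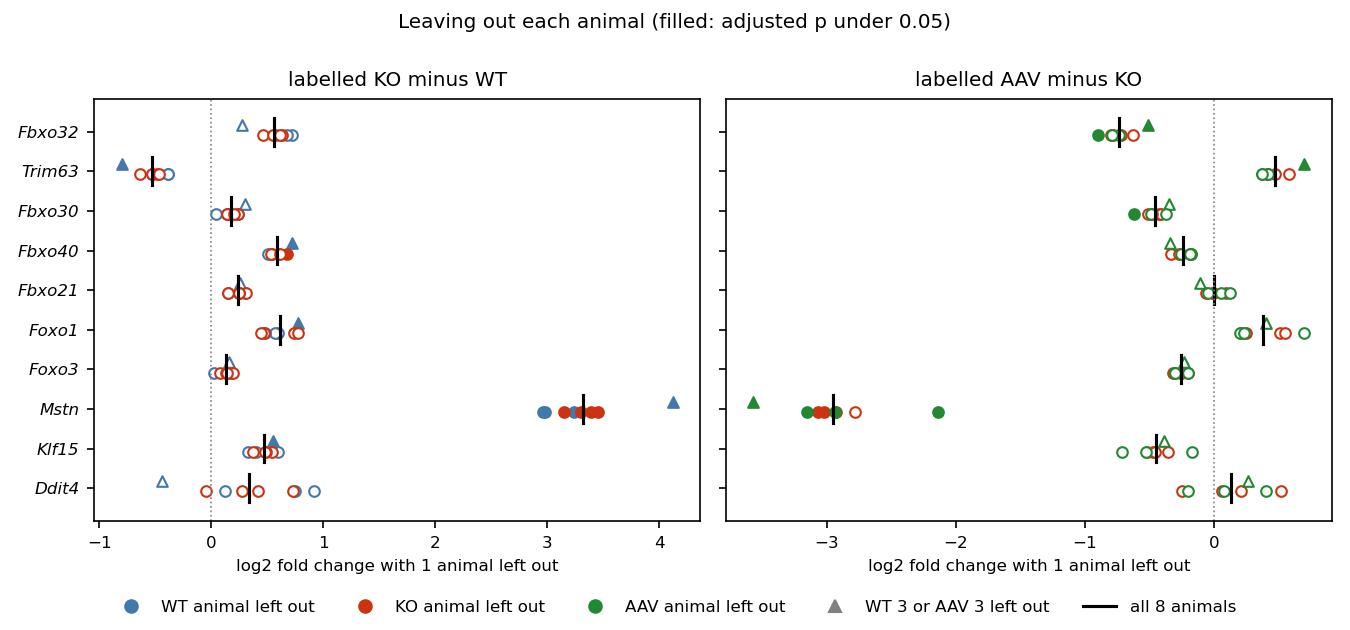
Log2 fold change (limma) of the 10 genes with each animal left out (points, coloured by the label of the animal left out, triangles for WT animal 3 or AAV animal 3, filled where the adjusted p is under 0.05) and with all 8 animals (bars). Mstn keeps its sign in every fit, at 2.96 to 4.12 in the left panel and -3.57 to -2.14 in the right, and the Ddit4 points lie on both sides of 0.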

How the data were processed

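Quadriceps RNA-seq of 12 mice was taken from 2 tables. Per the labels and methods, the authors trimmed reads (Trim Galore 0.4.1, FastQC 0.11.2), mapped them to GRCm38 with STAR, kept uniquely placed reads, assigned them to genes with HTSeq 0.6.1 and divided counts by DESeq2 1.16.1 size factors. The deposited normalized counts (a signal, not raw counts) have 15344 genes per table, and the shared KO values differed by 0. The authors' deposited log2 fold changes and their errors, the Wald statistic (a score) and the p-values of their own test were not used. The per-sample columns left out numbered 0. All values (100% within 0.1) were whole multiples of 1 step per library, so reads could be recovered.

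Because the values are normalized, groups were compared by limma 3.58.1 with a trend on log2(value + 1). Genes reaching 10 in any of the 8 libraries of a comparison were tested, and p-values were adjusted over all of them (Benjamini-Hochberg). The added 1 makes fold changes of low genes smaller. Alternatives were edgeR 4.0.16 and DESeq2 1.42.0 on recovered reads, other scalings, a pseudocount of 0.1, no filter, GC and length correction, a replicate block, all 12 libraries in one fit, and each animal left out. The members, lists and rules were chosen with earlier results of these data known. Acvr2a, Wfikkn2, Smad7, Akt1, Akt2, Tsc1 and Phlpp1 were named after their values were seen. The other named genes were chosen by rule. They were the 10 members, Gaa, the 4 genes of each list with the lowest adjusted p between the KO-labelled and WT-labelled libraries, and the 3 genes most correlated with each member. A gene that this rule names is not reported here. Coordinates and exon lengths came from GENCODE M21 (15186 identifiers found). Scripts were tested on simulated data. R 4.3.3, Python 3.11.15, pandas 2.3.3, numpy 2.4.6 and matplotlib 3.10.9 were used. Libraries held 22122233 to 47379737 reads, and no technical replicates were sequenced.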

Additional observations from a re-analysis of the deposited data

Results flagged for a closer look

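In 30 groups of 4 libraries (10 members by 3 labels), the gap of the highest or lowest library to its nearest neighbour was divided by the range of the group, and 2 groups exceeded Dixon's 95% limit. Chance gives about 1 in 20. Mstn in the libraries labelled WT had a ratio of 0.922, because WT animal 3 (1316.5 normalized counts) stood above the other 3 (116.9 to 209.9). Foxo3 in the libraries labelled WT had a ratio of 0.837, because WT animal 4 (580.3) stood below the other 3 (770.2 to 807.1).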

How the results depend on the processing

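Of 560 recomputed values of single members, 500 kept their direction and side of the threshold, 32 changed sign, 19 lost a call and 9 gained one. The count of members called between the KO-labelled and WT-labelled libraries (2) was 1 with a change of 1 or more on the log2 scale, 1 with the replicate block, 3 with GC or length correction (Fbxo40, Mstn and Klf15), and 1 to 5 with each animal left out. Between the AAV-labelled and KO-labelled libraries the count (2) was 1 with that minimum, with scaling by total reads, with the replicate block, with all 12 libraries in one fit, and with GC or length correction, and 0 to 3 with each animal left out. Between the AAV-labelled and WT-labelled libraries the count (0) was 1 with DESeq2 and 0 to 1 with each animal left out. Mstn was the member called in each case where 1 was called in the first comparisons.

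Changes of sign were all in values far from the threshold, and the cause was not tested. In KO against WT, Fbxo30 became -0.16 with GC correction, Foxo3 -0.04 with length correction, and Ddit4 -0.14 with DESeq2 and -0.14 with edgeR, and -0.44 to 0.92 with animals left out. In AAV against KO, Fbxo21 became -0.005 with edgeR and -0.10 with GC correction (-0.11 to 0.12 with animals left out), and Ddit4 became -0.13 with GC and -0.03 with length correction (-0.25 to 0.52). In AAV against WT, scaling by total reads gave 0.09 for Trim63 and 0.03 for Foxo3. There Ddit4 was -0.07 with DESeq2, -0.04 with edgeR and -0.18 without both WT animal 3 and AAV animal 3, an alternative chosen after seeing the data. With animals left out, it was -0.30 to 1.06, Fbxo32 -0.47 to 0.05, Trim63 -0.34 to 0.17, Mstn -0.25 to 1.19 and Klf15 -0.24 to 0.30. The ratio of Fbxo32 to Trim63 was likewise examined after seeing the data.

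The replicate block removed Fbxo40 in KO against WT (0.59, adjusted p = 0.0704, limma) and Fbxo32 in AAV against KO (-0.74, adjusted p = 0.0536). Same-numbered animals deviated from their groups with correlations of -0.46 to 0.643 over the 3 comparisons. The highest were between AAV and WT, for animal 3 (0.643) and animal 4 (0.556). The sources used here do not pair the animals by number, and a factor shared by same-numbered animals was not tested. With the block, 3062 genes were called in KO against WT in place of 4097, and 2179 in place of 3910 in AAV against KO. DESeq2 called 951 genes in AAV against WT in place of 193. Counting error alone, taken as that of the mean recovered reads of a group, was 0.589% to 5.92% of the mean over the 30 member groups, and the spread between animals was 9.6% to 132.4%, the larger of the pair in all 30.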
